A study of Mus musculus with 36 samples.

Results

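Bdnf and 5 genes that act with it in neurotrophin signalling, Ntf3, Ntrk2, Ntrk3, Ngfr and Vgf, are described here across 3 regions of the mouse brain and 3 inhibitors of histone deacetylases. Every probe of the MouseWG-6 array carrying one of these 6 symbols was taken, 19 of 45281 probes on an array with 30869 distinct symbols: 6 for Bdnf, 1 for Ntf3, 4 for Ntrk2, 3 for Ntrk3, 3 for Ngfr and 2 for Vgf. The set was proposed with the lower Bdnf signal of Cpd-60-treated prefrontal cortex in view. For all 6 genes that comparison is therefore given as a description, with no test.

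Adult male C57BL/6J mice received vehicle (saline, PEG-400 and DMSO), Cpd-60 at 45 mg/kg, SAHA at 25 mg/kg or CI-994 at 10 mg/kg, by 10 daily intraperitoneal injections, and were killed 1 hr after the last one. Cpd-60 and CI-994 are benzamides and SAHA is a hydroxamic acid, and each blocks histone deacetylases, the enzymes that take acetyl groups off histones. Hippocampus (HIP), prefrontal cortex (PFC) and nucleus accumbens (NAc), all from the same mice, were profiled, with 3 arrays per treatment and region and the RNA of 2 mice pooled on each, 36 arrays in all. Because the doses differ, the inhibitors are set side by side and were not tested against each other. All comparisons with vehicle in a region share its 3 vehicle arrays, which are also those of the comparison that led to the set.

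Neurotrophins are secreted growth factors that keep neurons alive and adjust the strength of their synapses. BDNF acts mainly through the receptor kinase TrkB (gene Ntrk2), and neurotrophin-3 (Ntf3) mainly through TrkC (Ntrk3). The p75 receptor (Ngfr) binds all neurotrophins and their uncleaved precursors, and Vgf encodes a precursor of secreted peptides whose mRNA is induced by neurotrophins and by neuronal activity. Bdnf is transcribed from several promoters, each first exon being spliced to a shared coding exon, and its activity-dependent transcription uses factors such as CREB, which binds cAMP response elements. Neurons of cortex and hippocampus make Bdnf mRNA, whereas striatal tissue receives most of its BDNF protein through cortical axons.

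The promoter sequences of RefSeq (GRCm38.p6) covered 4 of the 6 genes: Bdnf with 7 windows, Ntf3, Ntrk2 and Ngfr. The 250 bases before each start were searched on both strands for the cAMP response element TGACGTCA, for a variant of it, TCACGTNA, spelled out after these windows had been read, and for the E-box CACGTG, which the variant contains where its N is G. The cAMP response element lay in 0 of the 7 Bdnf windows and in 1.55% of all 32851 windows. The variant lay in 2 of the 7 Bdnf windows and in 1.4% of all windows. The E-box lay in 0 Bdnf windows, in 1 window of Ntf3 and in 6.02% of all windows. The windows with a match are shown because they are where the members' promoters hold these letters, printed 5′ to 3′ on the strand of the gene with the match in capitals. Bdnf window 1 is chr2:109674450-109674699 (plus strand), with the match starting 78 bases before the start. Bdnf window 3 is chr2:109692186-109692435 (plus strand), with the match 38 bases before the start. Ntf3 window 2 is chr6:126166745-126166994 (minus strand), with the match 231 bases before the start.
Bdnf window 1: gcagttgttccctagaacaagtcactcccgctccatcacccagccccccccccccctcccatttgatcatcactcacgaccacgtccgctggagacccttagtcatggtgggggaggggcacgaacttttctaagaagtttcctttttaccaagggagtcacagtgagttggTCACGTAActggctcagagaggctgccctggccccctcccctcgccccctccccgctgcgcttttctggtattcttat
Bdnf window 3: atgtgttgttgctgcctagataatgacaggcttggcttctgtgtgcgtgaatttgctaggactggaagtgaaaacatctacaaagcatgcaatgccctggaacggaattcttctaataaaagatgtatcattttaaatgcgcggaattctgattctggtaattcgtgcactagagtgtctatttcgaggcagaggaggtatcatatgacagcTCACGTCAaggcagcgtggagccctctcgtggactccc
Ntf3 window 2: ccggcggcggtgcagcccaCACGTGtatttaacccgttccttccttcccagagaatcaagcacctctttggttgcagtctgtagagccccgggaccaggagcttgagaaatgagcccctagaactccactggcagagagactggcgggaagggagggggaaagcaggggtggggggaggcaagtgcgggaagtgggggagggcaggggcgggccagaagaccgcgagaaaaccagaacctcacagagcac
A match describes letters and not binding, and which Bdnf transcript a probe reads is not given in the sources used here.

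Levels below are log2 normalised intensities, and changes are differences of their means, on which 1.2-fold equals 0.26. Below, a probe is called at the nominal criterion when it passes 1.2-fold and a limma unadjusted p of 0.05. That is looser than the study's own criterion, 1.2-fold with Tukey's HSD after an overall test of treatment. The study applied its criterion to 27 arrays, without CI-994. Here, 1.2-fold with Tukey's HSD was applied without the overall test and with CI-994 included. This form is called the study's criterion below, and its calls can differ from those of the paper, which held none for CI-994. For members and pathway genes it is said which calls met it. Calls of cell type markers are nominal. Median raw intensity per array ranged from 82.2 to 108.3, and 31.9% to 43.3% of probes were detected at p 0.01 or below. Background was not subtracted, so differences of dim probes are understated, and 3 arrays per group limit the precision. Of the 36 arrays, 3 were dimmest: Cpd-60 replicate 1 of the NAc, with a 95th percentile of raw intensity of 349.9, and SAHA replicates 2 and 3 of the HIP, with 437.7 and 452, against regional medians of 695.35 and 696.45. The 9 striatal genes averaged 10.29 to 10.59 on NAc vehicle arrays, against 7.46 to 7.61 in the PFC and 7.14 to 7.24 in the HIP. The 7 hippocampal genes on the array averaged 8.45 to 8.66 on HIP arrays, against 7.05 to 7.10 for PFC and 7.38 to 7.40 for NAc. The 7 cortical pyramidal genes averaged 8.56 to 8.75 on PFC arrays, against 7.45 to 7.55 for NAc and 7.79 to 7.83 for HIP.

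Under vehicle, Bdnf was high in PFC and HIP and low in NAc. Its brightest probe (ILMN_3105417) read 8.95, 8.93 and 8.96 on the PFC arrays, 8.87, 8.94 and 8.81 on those of the HIP, and 7.05, 6.98 and 6.65 on those of the NAc. No NAc array came near an array of the other regions. The NAc mean was 4.14-fold below that of the PFC (log2 difference -2.05, SE 0.09, limma adjusted p = 5.9e-16), and the HIP mean was 3.94-fold above that of the NAc (1.98, SE 0.09, limma adjusted p = 1.4e-15). Between HIP and PFC the difference was -0.07 (95% interval -0.26 to 0.11, limma adjusted p = 0.64). Among 26594 probes, 14.9% passed an adjusted p of 0.05 between NAc and PFC, 13.1% between HIP and NAc and 20% between HIP and PFC. The probe was detected at p 0.01 on all 12 PFC and all 12 HIP arrays but on 9 of 12 NAc arrays, and after background correction with neqc the difference between NAc and PFC was -3.32. Each region was run on 2 BeadChips of its own, so region and BeadChip cannot be told apart. In bulk tissue, fewer cells making an mRNA and less mRNA per cell cannot be told apart either.

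The other Bdnf probes were dimmer, and not all of them separated the NAc. ILMN_2666980 was detected on every vehicle array of PFC and HIP and on none of the NAc, and was at least 1.35-fold higher in the PFC (limma adjusted p = 3.3e-07) and at least 1.22-fold higher in the HIP (adjusted p = 1.9e-05) than in the NAc. In these bounds an undetected array is counted at the lowest signal of any detected probe. The adjusted p beside a bound is that of the fitted difference without the bound, and the bounds were not tested. The dimmer Bdnf probes entered the fit through PFC or HIP groups and none through a NAc group. Their tests against the NAc therefore lean on that filter, which does not hold for the brightest probe. ILMN_1214228 was at least 1.16-fold (adjusted p = 0.0022) and at least 1.14-fold (adjusted p = 0.0050) higher in PFC and HIP. ILMN_2446230 was at least 1.17-fold higher in the PFC than in the NAc (adjusted p = 0.00012) and lower in the HIP than in the PFC by a log2 difference of -0.19 (adjusted p = 0.035), a contrast in which the brightest probe did not pass. Between HIP and NAc it did not pass (adjusted p = 0.0735). ILMN_1255582 was higher in the HIP than in the NAc by 0.34 (adjusted p = 0.0029), while its difference of -0.19 between NAc and PFC did not pass (adjusted p = 0.12). ILMN_1246842 was detected on 1 of 36 arrays.

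**Figure D1:**
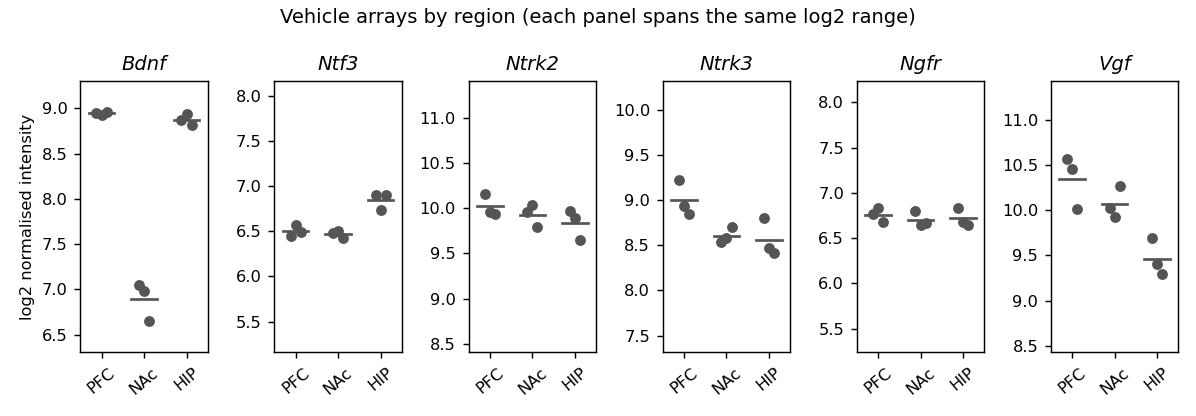
Log2 normalised intensity of each gene's brightest probe on the 9 vehicle arrays by region. Points are arrays (3 per region), lines are means, and all panels span the same log2 range. Bdnf lies near 8.9 in PFC and HIP and at 7.05 or below in the NAc, Ntf3 is highest and Vgf lowest in the HIP. Levels of different probes are not comparable.

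Ntf3 was detected only in the HIP, on 9 of 12 arrays. Its vehicle arrays read 6.90, 6.73 and 6.90 in the HIP, PFC arrays 6.45, 6.57 and 6.49, and NAc arrays 6.48, 6.51 and 6.42, with every HIP array above the others. The HIP level was at least 1.07-fold that of the PFC (limma adjusted p = 0.0011) and at least 1.08-fold that of the NAc (adjusted p = 0.00036). The probe entered this fit only through HIP groups, since no PFC or NAc group was detected on all its arrays. These tests therefore lean on that filter, and the order of the regions is a description. Each adjusted p is that of the fitted difference without the bound. Without vehicle replicate 1 the adjusted p against the PFC was 0.0512.

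Vgf was dimmest in the HIP. Its brightest probe read 10.57, 10.46 and 10.02 on PFC arrays, 10.02, 9.92 and 10.27 on NAc arrays and 9.69, 9.40 and 9.29 on HIP arrays, so that no HIP array reached an array of another region. The HIP mean was 1.85-fold below that of the PFC (log2 difference -0.89, SE 0.20, limma adjusted p = 0.0019), and the second Vgf probe gave -0.62 (SE 0.14, adjusted p = 0.0015). Without vehicle replicate 2 the first probe gave -0.80 (adjusted p = 0.0517). Between HIP and NAc the difference was -0.61 (adjusted p = 0.036) with the first probe and -0.30 (adjusted p = 0.16) with the second. Between NAc and PFC the arrays overlapped, and neither probe passed (-0.28, adjusted p = 0.40, and -0.32, adjusted p = 0.12). The call between HIP and NAc did not hold without vehicle replicate 1, 2 or 3 (adjusted p = 0.063, 0.14 and 0.25), without Cpd-60 replicate 1 or 2 (adjusted p = 0.0568 and 0.0522), with no detection filter (0.0572) or with the BeadChip as the random block (0.0627).

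The receptor genes passed no regional test. Ntrk2 averaged 10.02, 9.93 and 9.84 in PFC, NAc and HIP. Ntrk3 averaged 8.61 in NAc and 8.56 in HIP, and its largest regional difference, -0.44 between HIP and PFC (SE 0.30, limma adjusted p = 0.35), had the opposite sign in a second probe, ILMN_2599036 (0.45, SE 0.18, adjusted p = 0.075). Ngfr averaged 6.76, 6.70 and 6.72, close to background everywhere.

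In the PFC, the Bdnf signal of Cpd-60-treated mice lay well below that of vehicle-treated mice. The Cpd-60 pools read 8.25, 8.35 and 8.56 against vehicle pools of 8.95, 8.93 and 8.96, with no overlap. The means were 8.39 ± 0.16 and 8.95 ± 0.01 (SD, n = 3), a log2 change of -0.56 (SE 0.08), or -32.0%. Both BeadChips of the region held Cpd-60 and vehicle arrays in the same numbers, and the change was -0.64 within the first and -0.39 within the second. This is the value the set was chosen on. Beside it, the 5 cortical pyramidal genes tested had a median change of 0.01 with 0 past the nominal criterion, and the 7 astrocyte genes tested a median of 0.16, also with 0. The oligodendrocyte gene Cnp1 was called higher on the Cpd-60 arrays (0.31), 1 of 7 in its list, where 0.673% of all probes were. That list ran from -0.02 to 0.31, with a median of 0.13. The part of Cnp1 in the Bdnf value was not tested.

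CI-994 pools of the PFC read 8.55, 8.70 and 8.78, again all below the vehicle pools, and SAHA pools read 8.92, 8.86 and 8.82, just below them. The change after CI-994 was -0.27 (SE 0.08, 95% interval -0.45 to -0.09), or -16.9% (limma unadjusted p = 0.0069, adjusted p = 0.9997). It was -0.39 within the first BeadChip and -0.21 within the second. The study's criterion, in the form used here, was met too (Tukey's HSD p = 0.0492), though the paper's own analysis left CI-994 out. Without CI-994 replicate 1 the change was -0.20, short of 1.2-fold. On the same arrays the astrocyte gene Aldh1l1 was called lower (-0.30) and Cnp1 higher (0.32), 1 of 7 genes of each list. Of all probes, 0.32% were called lower and 0.334% higher. The astrocyte list had a median of 0.0039 and ran from -0.30 to 0.39. The oligodendrocyte list had a median of 0.06 and ran from -0.15 to 0.32. The part of these genes in the Bdnf value was not tested. After SAHA the change was -0.08 (interval -0.26 to 0.10, limma unadjusted p = 0.35).

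**Figure D2:**
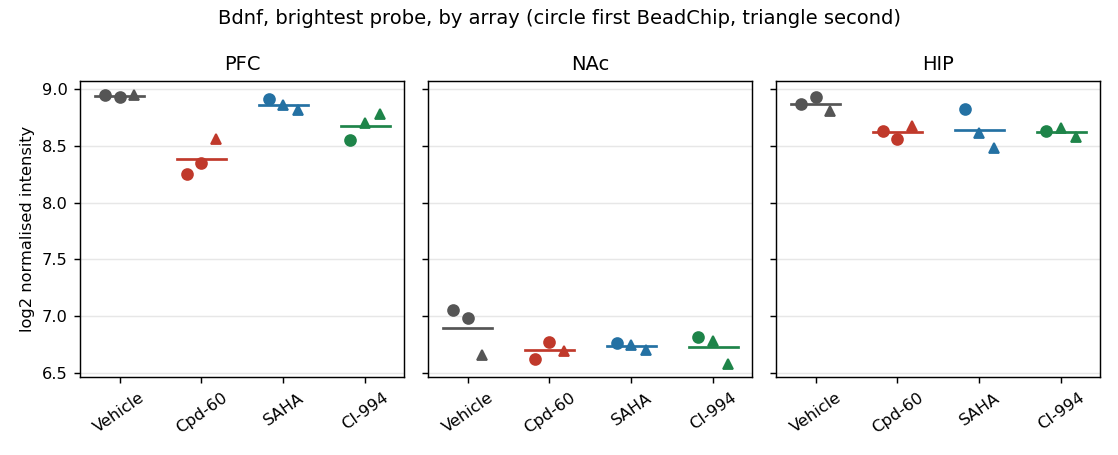
Log2 normalised intensity of the brightest Bdnf probe on each of the 36 arrays, by region and treatment. Each point is a pool of 2 mice, circles are the first and triangles the second BeadChip of a region, and lines are means. Cpd-60 pools of the PFC lie between 8.25 and 8.56, below vehicle pools at 8.93 to 8.96; drug means of the HIP lie at 8.62 to 8.64 against 8.87.

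In the HIP the Bdnf means were 8.62 ± 0.06 after Cpd-60, 8.64 ± 0.17 after SAHA and 8.62 ± 0.04 after CI-994, against 8.87 ± 0.06 under vehicle (SD, n = 3 each). Cpd-60 pools read 8.63, 8.56 and 8.68 and CI-994 pools 8.64, 8.66 and 8.58, all below the vehicle pools of 8.87, 8.94 and 8.81. SAHA pools read 8.82, 8.62 and 8.48, the first of them within the vehicle range. The changes were -0.25 after Cpd-60 (SE 0.08, limma unadjusted p = 0.0091, adjusted p = 0.85), -0.23 after SAHA (unadjusted p = 0.0131, adjusted p = 0.50) and -0.25 after CI-994 (unadjusted p = 0.0091, adjusted p = 0.9998). None reached 1.2-fold, and none passed Tukey's HSD. Leaving out 1 pool moved each past 1.2-fold. Without vehicle replicate 3 the changes were -0.28, -0.27 and -0.28 after Cpd-60, SAHA and CI-994 (limma unadjusted p = 0.0105, 0.0143 and 0.0105, adjusted p = 0.9993, 0.48 and 0.9984). Without Cpd-60 replicate 3 the Cpd-60 change was -0.28 (limma unadjusted p = 0.0109, adjusted p = 0.36), without CI-994 replicate 2 the CI-994 change was -0.27 (limma unadjusted p = 0.0128, adjusted p = 0.92), and without SAHA replicate 1 the SAHA change was -0.33 (limma unadjusted p = 0.00064, adjusted p = 0.28). The SAHA pools 8.62 and 8.48 are those on the dim arrays, and without SAHA replicate 3 the change was -0.15 (unadjusted p = 0.066). The part of array brightness in it was not tested. Hippocampal marker genes had median changes of 0.01, -0.02 and -0.13 after Cpd-60, SAHA and CI-994, with 0 of 7 past the criterion each time. On the SAHA arrays 3 of 7 oligodendrocyte genes were lower past the criterion, with a median of -0.23. Of all probes, 1.77% were called lower and 1.4% higher there. Among 8 astrocyte genes, with a median of -0.01, Gfap was called lower (-0.81) and Slc1a3 higher (0.33). The striatal gene Drd1a was called lower (-0.31), 1 of 7 in a list that ran up to 0.29, with a median of -0.03. On the Cpd-60 arrays the astrocyte gene Gjb6 was called higher (0.33), 1 of 8 with a list median of 0.14, where 0.726% of all probes were. On the CI-994 arrays the microglial gene C1qa was called higher (0.26), 1 of 6 with a list median of -0.05, where 0.275% of all probes were. The 7 oligodendrocyte genes ran from -0.28 to -0.09 on the CI-994 arrays, with a median of -0.21 and 0 called. The part of these genes in the Bdnf values was not tested.

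In the NAc, where Bdnf is near background, no drug passed the criterion against vehicle. Vehicle pools read 7.05, 6.98 and 6.65, Cpd-60 pools 6.62, 6.77 and 6.69, SAHA pools 6.76, 6.74 and 6.70, and CI-994 pools 6.82, 6.78 and 6.58, and every group overlapped the vehicle range. The changes were -0.20 (interval -0.43 to 0.03, limma unadjusted p = 0.078), -0.16 (-0.39 to 0.06, limma unadjusted p = 0.14) and -0.17 (-0.40 to 0.05, limma unadjusted p = 0.12). Within the second BeadChip they were 0.04, 0.07 and 0.02, and within the first -0.32, -0.26 and -0.20. Without vehicle replicate 3, the lowest vehicle pool, the changes were -0.32, -0.28 and -0.29, past 1.2-fold with limma unadjusted p = 0.0029, 0.0060 and 0.0050 (adjusted p = 0.64, 0.77 and 0.79).

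Ordered by mean, the 12 groups ran from the PFC under vehicle (8.95) through the HIP under vehicle (8.87), PFC after SAHA (8.87) and PFC after CI-994 (8.68) to the 3 drug groups of the HIP (8.64 to 8.62) and the PFC after Cpd-60 (8.39), with the NAc groups last (6.89 to 6.70). The 3 HIP drug groups overlapped one another, as did the 4 NAc groups. For SAHA and CI-994, no effect on Bdnf differed between regions past an adjusted p of 0.05, which 0 of 26594 probes passed in limma (603 to 1814 had an unadjusted p under 0.05). The Cpd-60 effect was less negative in HIP than in PFC by 0.31 and in NAc than in PFC by 0.36 (SE 0.13, descriptions without a test, since they hold the selecting comparison). For SAHA the effect in HIP minus PFC was -0.15 (limma unadjusted p = 0.24), and for CI-994 it was 0.02 (unadjusted p = 0.89).

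The remaining Bdnf probes gave smaller differences than the brightest one for Cpd-60 and CI-994. In the PFC, the differences of 4 other probes from vehicle ran from -0.04 to 0.03 with Cpd-60, against -0.56 for the brightest, from 0.03 to 0.12 with SAHA and from -0.11 to -0.02 with CI-994. In the HIP, 5 other probes gave -0.03 to 0.07, -0.06 to 0.10 and -0.11 to 0.07. The smallest unadjusted p among them in limma was 0.16. With the BeadChip as a block, ILMN_1214228 after CI-994 in the PFC went from -0.11 to -0.17 (unadjusted p = 0.0289), with -0.23 and -0.17 within the BeadChips. These probes read between 6.38 and 7.35, close to background, where changes are understated. ILMN_2666980, the brightest of them, was nevertheless detected on all 12 arrays of PFC and of HIP, and gave 0.03 with Cpd-60 in the PFC. After subtracting region means, its correlation with ILMN_3105417 over the 36 arrays was 0.129, against 0.961 over the 12 group means, which the regions dominate.

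**Figure D3:**
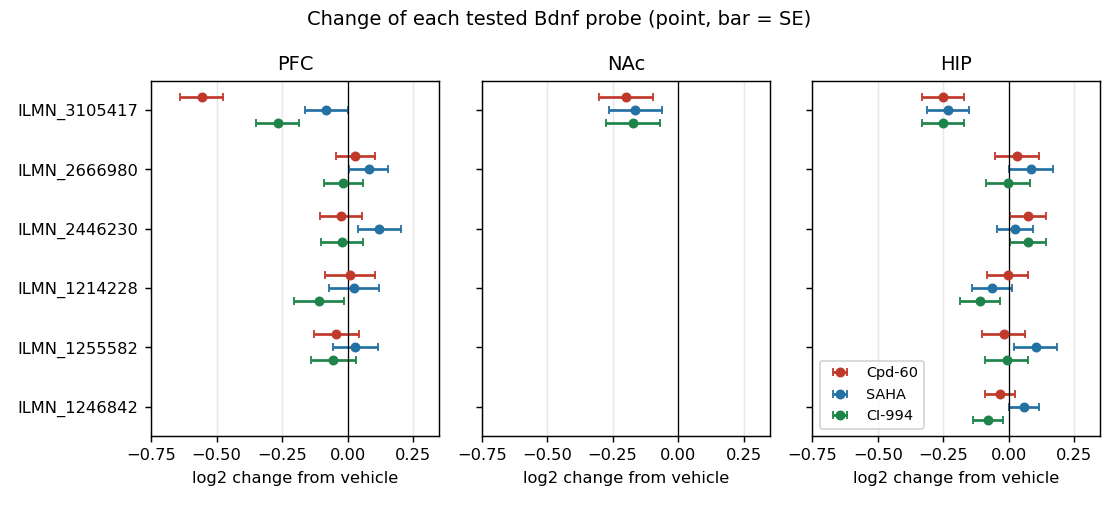
Log2 change from vehicle of every tested Bdnf probe, by region (points, with bars of 1 SE; red Cpd-60, blue SAHA, green CI-994). ILMN_3105417 lies at -0.56 after Cpd-60 in the PFC and near -0.25 after each drug in the HIP, while the other probes lie between -0.11 and 0.12. Only ILMN_3105417 was tested in the NAc.

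Across the 19 member probes, those tested were 13 for PFC, 10 for NAc and 16 for HIP, since a test needed detection on every array of some group. At an adjusted p of 0.05, limma called 0 member probes and 0% of all probes in each comparison with vehicle other than Cpd-60 in the PFC, where members were not tested; in these, 463 to 2182 probes had an unadjusted p under 0.05. At the nominal criterion, CI-994 in the PFC called 1 lower (Bdnf) and 0 higher, where 0.32% of all probes were called lower and 0.334% higher. SAHA in the NAc called 1 higher (Ngfr) and 0 lower, where 0.151% were called higher and 0.396% lower. The other comparisons called 0 member probes in either direction. At the study's criterion the Bdnf call of CI-994 in the PFC remained, where 0.0722% of all probes were called lower, and Ngfr was not called, where 0.0043% were called higher. Vehicle and Cpd-60 had 2 arrays on the first BeadChip of each region and 1 on the second, SAHA and CI-994 the reverse. With the BeadChip as a block the nominal criterion called Bdnf and Ngfr again, and 2 Ntrk2 probes besides, described with the receptors. For Cpd-60 in the PFC, 0.438% of all probes were lower and 0.673% higher at the nominal criterion, given as background only. The study's criterion called, of all probes, 0.289% higher and 0.158% lower for Cpd-60 in PFC, 0.194% and 0.327% in NAc and 0.202% and 0.292% in HIP. For SAHA these shares were 0.0316% and 0.00903% in PFC, 0.0043% and 0.0387% in NAc and 0.206% and 0.369% in HIP. For CI-994 they were 0.14% and 0.0722% in PFC, 0.00861% and 0.0473% in NAc and 0.129% and 0.0902% in HIP. The nominal criterion called more: for Cpd-60, 0.809% higher and 0.972% lower for the NAc, and 0.726% higher and 0.799% lower for the HIP. SAHA called 0.144% higher and 0.0722% lower for the PFC, and 1.4% higher and 1.77% lower for the HIP. CI-994 called 0.0861% higher and 0.297% lower for the NAc, and 0.275% higher and 0.395% lower for the HIP. Median changes over the tested member probes ranged from -0.05 (SAHA, HIP) to 0.08 (Cpd-60, NAc), and those over all probes from -0.0081 to 0.0029.

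Ngfr, the p75 receptor, was the other member past the nominal criterion. In the NAc its probe ILMN_2851288 read 7.08, 6.89 and 7.46 after SAHA, each above the vehicle pools of 6.80, 6.64 and 6.67. At p 0.01 it was detected on all 3 SAHA arrays but on 1 of 3 vehicle arrays. The change was 0.44 (SE 0.14, 95% interval 0.12 to 0.76, limma unadjusted p = 0.0116, adjusted p = 0.9998). It was 0.36 within the first BeadChip and 0.51 within the second, and 0.28 without SAHA replicate 3. It did not pass Tukey's HSD. With neqc it was 1.15. Cpd-60 pools read 6.67, 6.81 and 7.12 and CI-994 pools 6.76, 6.79 and 6.88, overlapping vehicle. The SAHA change in the NAc exceeded that in the PFC by 0.51 (SE 0.15, unadjusted p = 0.0016, adjusted p = 0.9999), and the HIP change lay below the NAc change by -0.55 (unadjusted p = 0.00074, adjusted p = 0.72). The other 2 Ngfr probes were detected on 0 of 36 arrays at p 0.01.

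Ngfr is known from basal forebrain cholinergic neurons, which border the NAc. Marker genes of the same arrays are given as a description. The 5 choroid plexus genes averaged 7.33 to 7.60 after SAHA and 7.11 to 7.29 under vehicle, with 0 of 5 called. The 5 cholinergic marker genes averaged 7.35 to 7.66 on the SAHA arrays of the NAc and 7.41 to 7.44 on its vehicle arrays, and 4 of 5 were detected there against 0 of 5 in PFC and HIP. The 8 astrocyte genes averaged 9.13 to 9.47 after SAHA and 8.94 to 9.10 under vehicle, with 2 of 7 tested past the criterion, both higher. Of all probes, 0.151% were called higher there. After Cpd-60 in the NAc the astrocyte genes averaged 9.07 to 9.38, also with 2 of 7 called higher, Gfap by 0.77. Of all probes, 0.809% were called higher in that comparison. On the SAHA arrays the cholinergic gene Lhx8 was called higher (0.36), 1 of 4 tested, with a list median of 0.10. The 9 striatal genes had a median change of -0.27 with 1, Pde10a, called lower, where 0.396% of all probes were. Their part in the Ngfr difference was not tested.

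**Figure D4:**
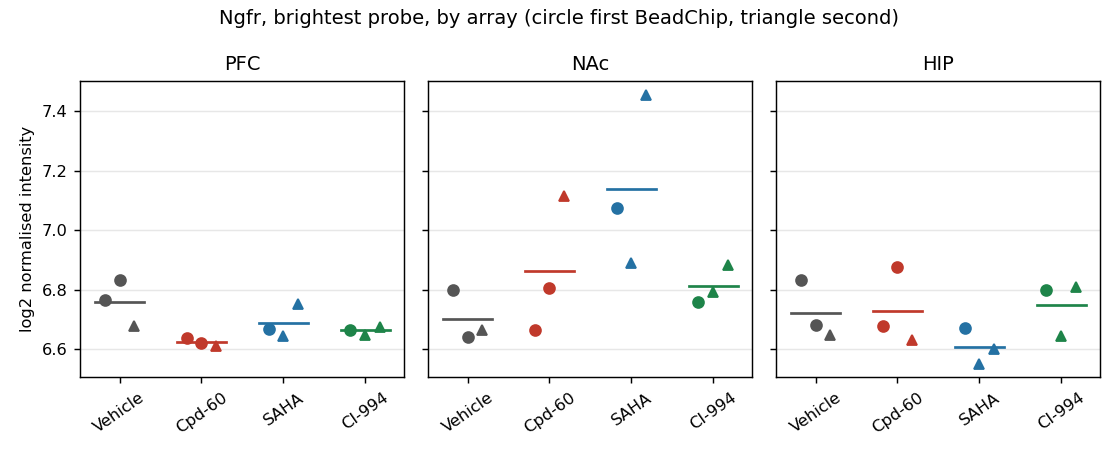
Log2 normalised intensity of the Ngfr probe ILMN_2851288 on each array, by region and treatment. Each point is a pool of 2 mice, circles are the first and triangles the second BeadChip of a region, and lines are means. SAHA pools of the NAc lie at 6.89 to 7.46, above vehicle pools at 6.64 to 6.80.

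No other receptor or ligand gene passed the nominal criterion without a block. Ntf3 in the HIP differed from vehicle by -0.11 to -0.01 across the drugs (smallest limma unadjusted p = 0.20). For the TrkB gene, the 3 tested Ntrk2 probes gave -0.14 to 0.32, the highest being ILMN_3061460 after Cpd-60 in the HIP (8.77, 8.83 and 8.46 against 8.52, 8.46 and 8.10, unadjusted p = 0.0897), where the groups overlapped. With the BeadChip as a block that probe passed the nominal criterion (0.32, unadjusted p = 0.0464, and 0.31 and 0.36 within the BeadChips). So did ILMN_3138904 after SAHA in the NAc, at 0.28 (unadjusted p = 0.0464, and 0.35 and 0.28 within the BeadChips), against 0.23 (unadjusted p = 0.10) without the block. For the TrkC gene, the Ntrk3 probes gave -0.35 to 0.23. The lowest, after SAHA in the HIP, came from pools of 8.15, 8.24 and 8.25 that all lay below vehicle pools of 8.81, 8.47 and 8.41 (unadjusted p = 0.22). Vgf gave -0.28 to 0.24, the lowest again after SAHA in the HIP (9.25, 9.08 and 9.22 against 9.69, 9.40 and 9.29, unadjusted p = 0.17), while its second probe gave 0.00023 there. The dim arrays are among these SAHA pools.

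**Figure D5:**
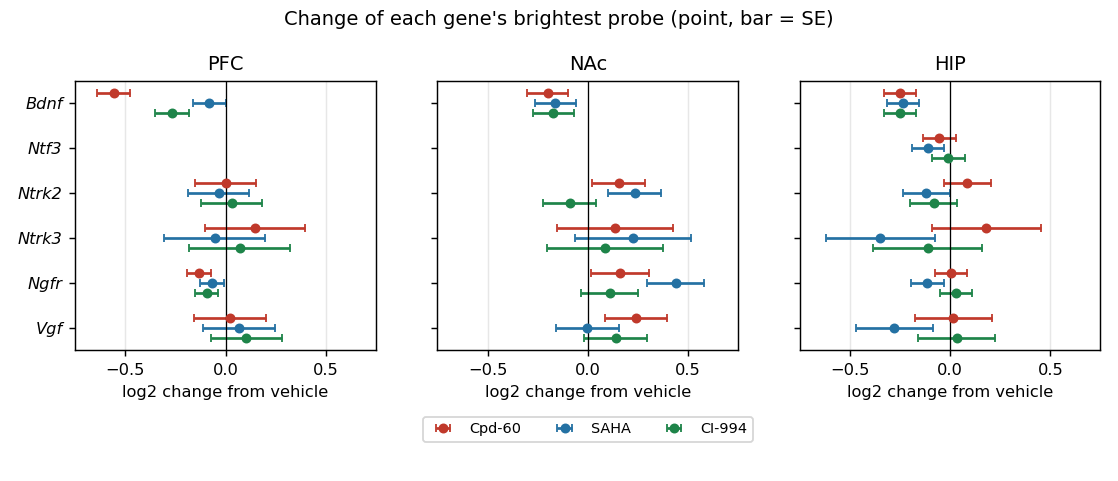
Log2 change from vehicle of each gene's brightest probe, by region (points, with bars of 1 SE; red Cpd-60, blue SAHA, green CI-994). Bdnf after Cpd-60 in the PFC (-0.56) and Ngfr after SAHA in the NAc (0.44) lie farthest from 0. Ntf3 was tested only in the HIP.

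Genes around the neurotrophins were counted from lists, with 1 probe per gene. Of all probes, 0.0861% to 1.4% were called higher and 0.0722% to 1.77% lower at the nominal criterion, depending on the comparison. At such shares, lists of this length often hold 0 calls in a direction. Of the genes that process, sort or release neurotrophins, 16 of 20 were tested per region, and over the 9 comparisons 1 was called higher and 1 lower at the nominal criterion, of which the first also met the study's. Plat, the tissue plasminogen activator that leads to cleavage of pro-BDNF, read 8.30, 8.38 and 8.22 after Cpd-60 in the NAc against 7.92, 7.98 and 7.86, a change of 0.37 (SE 0.10, limma unadjusted p = 0.0033, adjusted p = 0.94). Furin, a protease that cleaves pro-neurotrophins, read 8.10, 8.05 and 8.06 after SAHA in the HIP against 8.76, 8.74 and 8.44, a change of -0.58 (unadjusted p = 0.0157, adjusted p = 0.50). Neither group overlapped vehicle. Furin did not pass Tukey's HSD, and its SAHA group holds 2 dim arrays, as the Cpd-60 group of the NAc holds 1.

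Among genes of Trk and p75 signalling, 32 to 35 were tested per region, and 0 were called higher, where 0.0861% to 1.4% of all probes were. Lower calls were 2 for Cpd-60 in the NAc, 1 for Cpd-60 in the HIP, 1 for SAHA in the NAc and 2 for SAHA in the HIP. Of all probes, 0.972%, 0.799%, 0.396% and 1.77% were called lower in these comparisons, in the same order. Map2k2, a kinase that activates ERK, was called lower in 3 of these comparisons, by -0.62 after Cpd-60 in the NAc (8.94, 9.34 and 8.95 against 9.80, 9.70 and 9.58, limma unadjusted p = 0.0014, adjusted p = 0.94), -0.40 after Cpd-60 in the HIP and -0.33 after SAHA in the NAc. After SAHA in the HIP it was higher by 0.32, uncalled (9.51, 9.84 and 10.02 against 9.34, 9.34 and 9.72). After CI-994 it averaged 9.65 against 9.47 in the HIP and 9.50 against 9.69 in the NAc, also uncalled. Pik3r1, a regulatory subunit of PI3-kinase, was lower by -0.29 after SAHA in the HIP (unadjusted p = 0.0053, adjusted p = 0.50). Of the 6 calls, Map2k2 after Cpd-60 in the NAc and Pik3r1 after SAHA in the HIP met the study's criterion and the other 4 did not. List medians ran from -0.03 to 0.02.

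Of the regulators of Bdnf transcription, 14 or 15 were tested per region. Only CI-994 in the HIP called 1 lower, where 0.395% of all probes were called lower. Calls of this list in the higher direction are not reported here. Bhlhe40, a repressor that binds E-boxes, read 8.87, 8.67 and 9.08 after CI-994 in the HIP against 9.24, 9.14 and 9.22 (-0.33, unadjusted p = 0.0035, adjusted p = 0.9998), and met the study's criterion.

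Genes known to respond to BDNF or to neuronal activity were tested for 25 of 29 members in each region. In every comparison 0 were called higher, where 0.0861% to 1.4% of all probes were. In the PFC after Cpd-60 the median change of the 25 genes, Vgf among them, was -0.01 against -0.0027 over all probes, given as a description. After CI-994 in the PFC 1 was called, Cort, a peptide of cortical interneurons, at 8.03, 7.59 and 8.18 against 8.22, 8.40 and 8.47 (-0.44, limma unadjusted p = 0.0200, adjusted p = 0.9997). Of all probes, 0.32% were called lower there. Cort was lower in the HIP too, by -0.47 after Cpd-60 (7.56, 7.52 and 7.63 against 8.05, 8.01 and 8.05, unadjusted p = 0.0021, adjusted p = 0.81) and by -0.37 after CI-994. In the NAc after Cpd-60, 3 of 25 were called lower, where 0.972% of all probes were. Among them were Inhba, an activity-induced activin subunit, by -0.45 (unadjusted p = 0.00091, adjusted p = 0.94) and Dusp6, a phosphatase that turns off ERK, by -0.44 (unadjusted p = 0.0076, adjusted p = 0.94). Nptx2, a synaptic pentraxin, was lower by -0.79 after SAHA in the HIP (7.95, 7.81 and 7.77 against 8.87, 8.81 and 8.23, unadjusted p = 0.0296, adjusted p = 0.52), again on a group holding dim arrays. Of 10 calls over the comparisons, Cort and Inhba after Cpd-60, in the HIP and the NAc, met the study's criterion and the other 8 did not. All were lower, where 0.0722% to 1.77% of all probes were called lower, depending on the comparison.

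The probes whose levels most resembled Bdnf over the 12 group means, of 8971 detected on every array, were those of Ly6e (Pearson r = 0.991), Nrn1 (0.988), Zfpm2 (0.986), Ccdc32 (0.986) and Olfm1 (0.986), against a median r of 0.017. They share its low NAc level, though 4 of the 5 were higher in the HIP than in the PFC. Nrn1, encoding the neurite-promoting neuritin, averaged 11.41 in PFC and 11.54 in HIP under vehicle, and 8.02 in NAc. Once region means were subtracted, the highest of 10284 probes over the 36 arrays were 4930461P20Rik (0.638), Puf60 (0.637), A330102I10Rik (0.62), Hist2h2aa1 (0.604) and Mrpl48 (0.601). The points share treatment, BeadChip and animals, so these correlations are descriptions.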

How the data were processed

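RNA of 36 pools of mouse brain tissue was hybridised to Illumina MouseWG-6 arrays. The authors deposited raw intensity values without background subtraction, with a detection p-value per probe also deposited. Probe sequences and a genome build are not given in the sources used here. For Cpd-60 replicate 2, the label fields disagree on the pooled mice, and the titles were used. Intensities, floored at 1, were quantile-normalized over all 36 arrays and log2-transformed. A probe was tested where some group had a detection p of 0.2 or below on each of its 3 arrays. Fits used limma 3.58.1 (R 4.3.3), per region for drugs and over 36 arrays with the pool as a random block for regions (correlation -0.013), with Benjamini-Hochberg adjustment over all probes tested. The script was tested on simulated data. The members and lists were chosen with earlier results of these data known. Named list genes are the up to 2 per list and comparison with the largest changes past unadjusted p 0.05 and 1.2-fold, without overlap of pools. The values of 2 list genes are not reported here. Likeness used probes detected at p 0.01 on all arrays with an SD of at least 0.1. Replicates are pools of different mice. An exact permutation test of 3 against 3 arrays cannot give p below 0.1 and was not used. Alternatives were neqc, other filters, normalization within regions, 27 arrays without CI-994, BeadChip and replicate blocks, Tukey's HSD, other Bdnf probes and leaving out each replicate.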

Additional observations from a re-analysis of the deposited data

How the results depend on the processing

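In PFC and HIP the Bdnf changes depended most on the probe, and in the NAc, where 1 probe was tested, on the background correction. In place of the brightest probe, ILMN_2666980, ILMN_2446230, ILMN_1214228 and ILMN_1255582 gave 0.030, -0.025, 0.0090 and -0.043 for Cpd-60 in the PFC and 0.082, 0.12, 0.026 and 0.030 for SAHA in the PFC. In the HIP, ILMN_2666980 and ILMN_2446230 gave 0.030 and 0.072 for Cpd-60, ILMN_2446230 gave 0.072 for CI-994, and ILMN_2666980, ILMN_2446230, ILMN_1255582 and ILMN_1246842 gave 0.086, 0.022, 0.10 and 0.058 for SAHA. Within the second BeadChip the change was -0.39 for Cpd-60 in the PFC, 0.043, 0.068 and 0.025 for Cpd-60, SAHA and CI-994 in the NAc and -0.13 for Cpd-60 in the HIP. Within the first it was -0.081 for SAHA in the HIP and -0.39 for CI-994 in the PFC. With neqc, Cpd-60 in the PFC gave -0.69, and the NAc changes were -0.57, -0.45 and -0.47 for Cpd-60, SAHA and CI-994. The untested or uncalled differences of Bdnf effects between regions also moved with neqc: Cpd-60, NAc minus PFC, 0.12 and HIP minus NAc, 0.27; SAHA, HIP minus NAc, 0.17; CI-994, NAc minus PFC, -0.15 and HIP minus NAc, 0.17. Leaving out 1 replicate each, the HIP minus NAc effects ranged from -0.13 to 0.041 (Cpd-60), -0.15 to 0.020 (SAHA) and -0.15 to 0.013 (CI-994), and the CI-994 effects from -0.051 to 0.092 (HIP minus PFC) and -0.032 to 0.22 (NAc minus PFC). The cause of these shifts was not tested. Leaving out replicates, the Cpd-60 change in the PFC ranged from -0.64 to -0.49. For the brightest probe, the regional Bdnf differences of the NAc passed an adjusted p of 0.05 under each alternative fit and each replicate left out. Not all other Bdnf probes passed, as given with the regions. With the replicate number as a block, Bdnf after SAHA in the HIP was -0.23 (limma unadjusted p = 0.0121, adjusted p = 0.26), and adjusted calls over all probes were 0 in 8 comparisons and 1 for SAHA in the HIP. Whether arrays of the same number share more than others was not tested. Of 54 same-numbered pairs, 32 had a correlation of deviations over 0.1 (range -0.44 to 0.868). Of 36 arrays, 21 correlated best with their own number. In each region replicate 1 was on the first BeadChip and replicate 3 on the second, so number and BeadChip cannot be fully told apart.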
